A study of Mus musculus with 15 samples.

Results

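The liver's own Gdf15 transcript and 8 genes of the amino acid stress response (Ddit3, Trib3, Atf3, Asns, Sesn2, Chac1, Psat1 and Phgdh) were followed across 3 groups of mouse livers. They were taken by their symbols from a table of 15302 genes, and all 9 were in it. Liver RNA of 15 wild-type mice had been sequenced, 5 libraries in each group. From 8 weeks of age every animal ate a MASH diet, which brings on steatohepatitis, a fatty liver with inflammation, in a room at about 29°C; each lived singly. The GDF15 mice were injected subcutaneously each morning with recombinant GDF15 at 1 nmol/kg, PairFed mice were given the food weight that GDF15 mice had eaten on the previous day, and Vehicle mice served as controls. Body weight and composition were matched between groups before treatment. The sources used here do not give the length of treatment, the animals' sex or any injections of PairFed mice. The comparisons asked whether the hormone, or the lower food intake alone, moved these transcripts.

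GDF15 is a hormone of the TGF-beta family that is made by stressed cells and acts on the receptor GFRAL in the hindbrain to lower food intake. In the integrated stress response, kinases that sense missing amino acids, misfolded protein, viral RNA or missing haem phosphorylate the initiation factor eIF2alpha, which lowers bulk translation but raises that of the transcription factor ATF4. ATF4, with partners such as CHOP (the product of Ddit3) and ATF3, switches on genes for amino acid synthesis and uptake, among them Asns, Psat1 and Phgdh, and feedback genes such as Trib3. Gdf15 is a known target of this pathway, and the liver is a known source of the circulating hormone. ATF4 itself is controlled largely by translation, so its transcript is a poor gauge of its activity.

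The stretches around the start sites were read from RefSeq's promoter table (assembly GRCm38.p6), which gives 250 bases before and 50 after each start and held all 9 members in 11 windows. The letters TGATGNAA, the core of the C/EBP-ATF response element through which ATF4 acts, were searched on both strands. They were found in 4 of the 9 members (Trib3, Atf3, Asns and Chac1), and in 3.97% of all 32851 windows. The palindrome TGACGTCA, the full cAMP response element, which shares no full match with the first motif, was in none of the members and in 1.79% of all windows. The windows of Atf3 and Chac1, whose motifs have the same letters, those of Trib3 and Asns, and those of Gdf15 (the first of its 2 starts) and Ddit3, without a match, are printed 5′ to 3′ on the gene's strand, with TGATGNAA or its reverse complement in capitals.
Atf3 (chr1:191183284-191183583, minus strand): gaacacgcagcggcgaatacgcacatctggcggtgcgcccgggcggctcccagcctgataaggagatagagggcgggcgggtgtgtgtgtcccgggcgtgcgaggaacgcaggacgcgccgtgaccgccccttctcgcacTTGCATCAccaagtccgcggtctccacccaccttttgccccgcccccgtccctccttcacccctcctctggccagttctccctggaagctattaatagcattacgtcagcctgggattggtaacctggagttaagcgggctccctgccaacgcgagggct
Chac1 (chr2:119350992-119351291, plus strand): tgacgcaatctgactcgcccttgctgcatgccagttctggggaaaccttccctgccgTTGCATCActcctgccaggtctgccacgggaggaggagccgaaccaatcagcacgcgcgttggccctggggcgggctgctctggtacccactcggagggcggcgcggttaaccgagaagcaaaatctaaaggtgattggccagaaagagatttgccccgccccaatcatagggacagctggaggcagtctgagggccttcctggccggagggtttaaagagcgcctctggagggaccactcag
Trib3 (chr2:152344011-152344310, minus strand): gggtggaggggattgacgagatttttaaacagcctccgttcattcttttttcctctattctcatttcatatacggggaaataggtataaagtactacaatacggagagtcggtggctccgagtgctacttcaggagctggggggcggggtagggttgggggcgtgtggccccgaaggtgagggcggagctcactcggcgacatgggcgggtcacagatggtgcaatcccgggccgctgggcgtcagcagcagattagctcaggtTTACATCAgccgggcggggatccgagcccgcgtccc
Asns (chr6:7693160-7693459, minus strand): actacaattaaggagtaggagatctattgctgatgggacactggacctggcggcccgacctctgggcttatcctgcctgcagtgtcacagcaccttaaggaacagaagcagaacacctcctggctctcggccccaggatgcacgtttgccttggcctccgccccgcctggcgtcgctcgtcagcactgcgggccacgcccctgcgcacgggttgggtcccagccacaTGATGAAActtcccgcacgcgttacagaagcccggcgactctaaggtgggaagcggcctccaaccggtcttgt
Gdf15 (chr8:70632407-70632706, minus strand): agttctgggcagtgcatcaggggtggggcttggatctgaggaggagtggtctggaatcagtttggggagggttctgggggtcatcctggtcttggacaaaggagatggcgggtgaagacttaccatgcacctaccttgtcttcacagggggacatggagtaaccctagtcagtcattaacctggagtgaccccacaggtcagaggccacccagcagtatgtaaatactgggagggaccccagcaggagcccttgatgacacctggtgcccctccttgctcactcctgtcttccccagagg
Ddit3 (chr10:127290543-127290842, plus strand): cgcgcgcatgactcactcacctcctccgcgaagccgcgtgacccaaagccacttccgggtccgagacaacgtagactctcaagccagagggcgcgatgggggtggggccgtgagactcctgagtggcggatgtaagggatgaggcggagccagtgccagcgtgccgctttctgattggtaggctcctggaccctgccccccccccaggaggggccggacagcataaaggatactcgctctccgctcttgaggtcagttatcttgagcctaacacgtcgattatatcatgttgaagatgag
The motif began 110 bases before the start in Atf3, 193 before it in Chac1 and 23 before it in Asns, and 14 bases after it in Trib3. A match of letters is a description of these windows and not a site.

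Total counts ran from 8551557 to 10914914 in GDF15, from 10133289 to 12933324 in PairFed and from 9228127 to 12994187 in Vehicle. The largest gap in depth set apart 4 PairFed and 1 Vehicle library as deeper than the rest, so that depth cannot be fully told apart from group. The hepatocyte markers Alb, Ttr, Apoa1, Apob, Cps1, Cyp2e1 and Serpina1c summed to between 95660 and 122600 CPM in GDF15, between 91330 and 112400 in PairFed and between 82950 and 104300 in Vehicle. CPM is a gene's count scaled to its library's total after TMM adjustment (a factor that corrects for differences in composition). Markers of other liver cells were present at far lower sums. Those of Kupffer cells, the resident macrophages, had a median of 285 CPM in GDF15, 275 in PairFed and 265 in Vehicle, those of monocytes 199.9, 138 and 239 CPM, and those of bile duct cells 203, 209 and 306 CPM in the same order. By edgeR, 1 of 7 hepatocyte markers rose in GDF15 against Vehicle and 1 of 7 in GDF15 against PairFed. In GDF15 against Vehicle 1 of 5 monocyte markers fell, and of 3 T and NK cell markers 1 rose and 1 fell, while 1 of 5 bile duct markers fell in PairFed against Vehicle. The part of these markers in the results was not tested. In whole liver, fewer cells of a type and less RNA per cell cannot be told apart. The labels do not say more about the replicates than that they are separate samples, and p-values measure the spread between them, part of which may be technical.

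None of the members differed between groups past an adjusted p of 0.05, by edgeR's quasi-likelihood test over all 12274 genes tested. In GDF15 against Vehicle 0 of the 7 members tested were called, where 2.9% of all genes were (2.02% higher and 0.88% lower). For PairFed against Vehicle the count was 0 of 7, against 0.285% of all genes (0.147% higher and 0.139% lower), and for GDF15 against PairFed it was 0 of 7, against 0.782% of all genes (0.562% higher and 0.22% lower). Shares this low make a count of 0 no mark of the members. At an unadjusted p under 0.05, 3 members stood out in GDF15 against Vehicle (Atf3, Ddit3 and Psat1), 1 in PairFed against Vehicle (Ddit3) and 0 in GDF15 against PairFed; over all genes these shares were 16.7%, 16.9% and 13.3%. DESeq2 called 1 member in GDF15 against Vehicle, Atf3, where it called 5.23% of all genes, and 0 in PairFed against Vehicle and GDF15 against PairFed, where it called 2.76% and 2.11%. Limma-voom called 0 members in each comparison, where it called 2.47%, 0.326% and 0.611% of all genes. In no comparison did the groups fail to overlap for any member, which happened for 3.99%, 3.92% and 2.86% of genes. Asns and Phgdh did not pass the filter on low counts, and their values come from a fit without it.

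**Figure D1:**
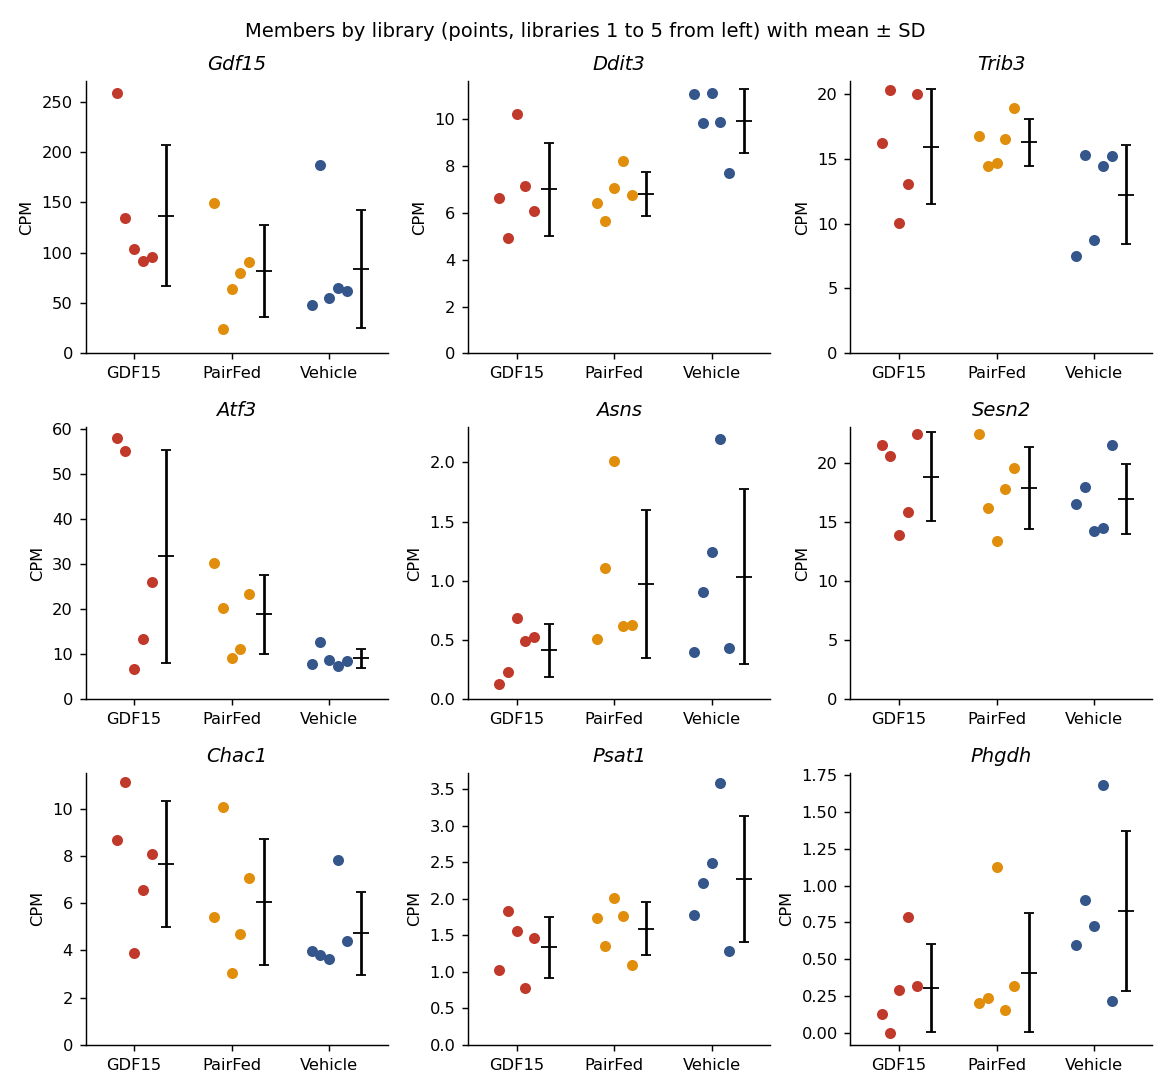
Level of each of the 9 members in every library (CPM, linear axis from 0), by group; points are libraries 1 to 5 from left to right and the bar at the right of each group is the mean ± SD. Gdf15 had single high libraries in GDF15 (259 CPM) and Vehicle (187 CPM), Atf3 spread widely in GDF15 (6.63 to 57.9 CPM), and Ddit3 was between 7.71 and 11.1 CPM in Vehicle.

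Gdf15 itself (chromosome 8, 70629393 to 70632470, minus strand) varied more between animals of a group than the groups differed. It had 259, 134, 103, 91.7 and 95.9 CPM in GDF15 libraries 1 to 5, against 149.7, 24.5, 63.7, 80.1 and 90.4 CPM in PairFed 1 to 5, and 48.0, 187, 55.0, 65.3 and 62.2 CPM in Vehicle 1 to 5. All 5 GDF15 livers were thus above 4 of the 5 Vehicle livers, and Vehicle 2 stood above 4 of the 5 GDF15 livers. The mean was 137 ± 70.2 CPM in GDF15, 81.7 ± 45.5 in PairFed and 83.5 ± 58.3 in Vehicle (SD, n = 5 each). By the means the order was therefore GDF15, Vehicle, PairFed, and no neighbours in it differed beyond their spread. By the medians (103 CPM in GDF15, 80.1 in PairFed and 62.2 in Vehicle) PairFed lay above Vehicle, so the order of these 2 groups was not settled.

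The log2 fold change of Gdf15 was 0.71 ± 0.50 (SE) in GDF15 against Vehicle, with a 95% interval from -0.39 to 1.80 (edgeR adjusted p = 0.524). In PairFed against Vehicle it was -0.04 ± 0.50, from -1.13 to 1.06 (adjusted p = 0.978), and in GDF15 against PairFed 0.74 ± 0.50, from -0.35 to 1.84 (adjusted p = 0.571). Each interval holds 0, so the direction of the transcript was not settled by these 15 livers. Single libraries moved the values: without Vehicle 2 the first became 1.24 (adjusted p = 0.184) and the second 0.50 (adjusted p = 0.621), and without GDF15 1 the first became 0.35 (adjusted p = 0.827) and the third 0.38 (adjusted p = 0.835). With a term for the deeper libraries the PairFed difference from Vehicle was 0.38 and that of GDF15 from PairFed 0.16. GDF15 1, the highest library for Gdf15, also had the highest hepatocyte marker sum of the 15 (122600 CPM). It had the lowest sums for endothelial (50.7 CPM), Kupffer (148.5 CPM), monocyte (117 CPM), stellate (205.6 CPM) and bile duct cells (125.2 CPM). It was not the lowest for T and NK cells, B cells, neutrophils or red blood cells. The part of these markers in its Gdf15 level was not tested.

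Gdf15 and Atf3 were among the most variable genes of the liver. Their biological coefficient of variation, the spread between libraries of a group beyond counting noise, was 53.6% and 55.6%, above that of 99.2% and 99.3% of the genes tested, whose median was 11%. Among the 500 genes nearest in level, each lay above 99.4%. Chac1, at 33.5%, lay above 96.2% of its 500 neighbours in level, Trib3 (22.4%) above 93.8% and Sesn2 (16.3%) above 90.6%. Ddit3, at 15.6%, and Psat1, at 23.4%, lay above 68.6% and 47.8%.

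**Figure D2:**
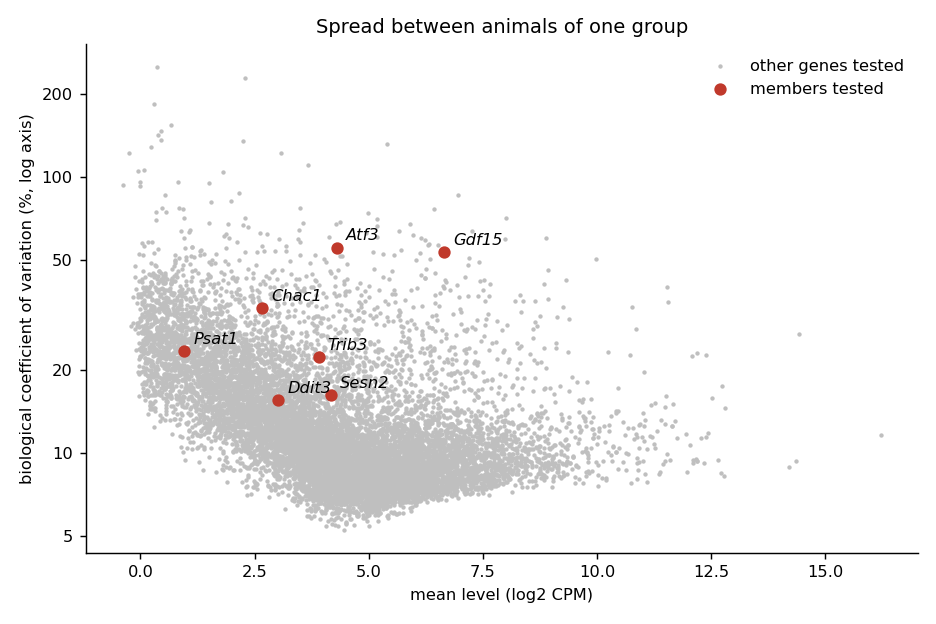
Biological coefficient of variation (percent, log axis) against mean level (log2 CPM) for all genes tested (grey) and the 7 members tested (red). Gdf15 and Atf3 sit at 53.6% and 55.6%, near the upper edge of genes of their level, while Ddit3 and Psat1 sit within the cloud.

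Of the transcription factors, Atf3 (chromosome 1, 191170296 to 191183333, minus strand), a stress-induced repressor that is also switched on within minutes as an immediate-early gene, had the largest difference from Vehicle among the tested members. It was at 57.9, 55.1, 6.63, 13.2 and 26.0 CPM in GDF15 1 to 5, against 30.3, 20.3, 9.16, 11.2 and 23.3 CPM in PairFed and 7.82, 12.8, 8.73, 7.33 and 8.45 CPM in Vehicle. In GDF15, 4 of the 5 livers were above all Vehicle livers, and GDF15 3 was below all of them. The log2 fold change in GDF15 against Vehicle was 1.80 ± 0.56 (95% interval 0.60 to 3.01, edgeR adjusted p = 0.111). It passed the threshold with the DESeq2 Wald test (1.82, adjusted p = 0.0164) and without GDF15 3 (2.07, edgeR adjusted p = 0.0294, in a fit that called 3.86% of all genes), but not with limma-voom (1.35, adjusted p = 0.363). In PairFed against Vehicle it was 1.06 ± 0.56 (adjusted p = 0.355) and in GDF15 against PairFed 0.74 ± 0.52 (adjusted p = 0.582). Of 4 markers of red blood cells, 3 were in the table, and their sum ran from 114 to 545 CPM in GDF15, from 184 to 649 CPM in PairFed and from 153 to 359 CPM in Vehicle. Within GDF15 it was highest in GDF15 1 and GDF15 2 and lowest in GDF15 3, as for Atf3, and its part in the result was not tested.

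Ddit3 (chromosome 10, 127290793 to 127296291, plus strand) encodes CHOP, a factor that takes part in cell death when stress is prolonged, and its values pointed the other way. It was at 6.64, 4.93, 10.2, 7.16 and 6.10 CPM in GDF15 1 to 5, against 6.43, 5.64, 7.07, 8.21 and 6.76 CPM in PairFed and 11.1, 9.85, 11.1, 9.89 and 7.71 CPM in Vehicle. Apart from GDF15 3 and Vehicle 5, all GDF15 and PairFed livers lay below all Vehicle livers. The log2 fold change was -0.49 ± 0.17 in GDF15 against Vehicle (95% interval -0.84 to -0.15, edgeR adjusted p = 0.121) and -0.54 ± 0.16 in PairFed against Vehicle (-0.88 to -0.20, adjusted p = 0.120). These 2 comparisons share the Vehicle libraries. Between GDF15 and PairFed the difference was 0.05 ± 0.17 (-0.31 to 0.40, adjusted p = 0.939). GDF15 3 was the highest of its group here and the lowest for Atf3, and without it Ddit3 was past the threshold in GDF15 against Vehicle (-0.68 ± 0.15, adjusted p = 0.0180). Ddit3 overlaps Mars1, a tRNA synthetase gene on the opposite strand that had 10672 counts in all, and since the strand setting of the counting is not given, some reads may be shared.

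**Figure D3:**
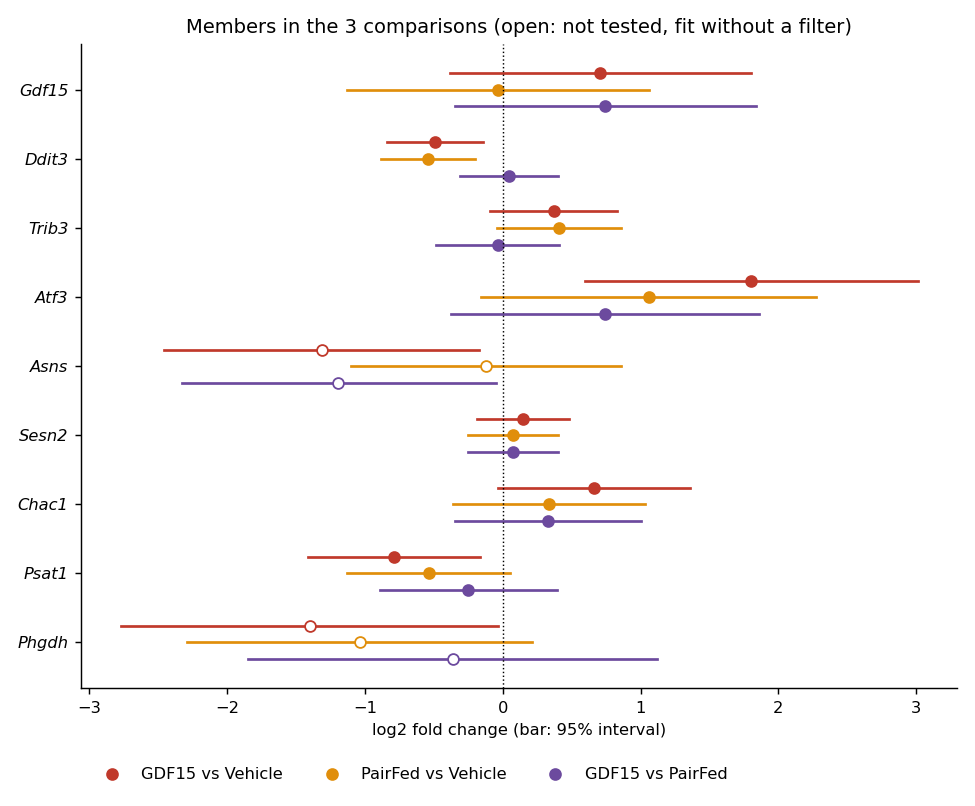
Log2 fold change of each member with its 95% interval in GDF15 against Vehicle, PairFed against Vehicle and GDF15 against PairFed; filled circles are members tested, open circles Asns and Phgdh from the fit without a filter. Atf3 lies at 1.80 and Ddit3 at -0.49 in GDF15 against Vehicle, and the intervals of Gdf15 hold 0 in each comparison.

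Trib3 (chromosome 2, 152337425 to 152344060, minus strand), a pseudokinase that restrains ATF4 and the kinase AKT, was at 16.2, 20.3, 10.04, 13.04 and 19.97 CPM in GDF15 1 to 5, against 16.7, 14.5, 14.7, 16.5 and 18.9 CPM in PairFed and 7.52, 15.28, 8.73, 14.4 and 15.197 CPM in Vehicle. The PairFed libraries were close together, whereas Vehicle 1 and Vehicle 3 lay well below the rest of their group. Its log2 fold change was 0.37 ± 0.22 in GDF15 against Vehicle (edgeR adjusted p = 0.423), 0.41 ± 0.21 in PairFed against Vehicle (adjusted p = 0.339) and -0.04 ± 0.21 in GDF15 against PairFed (adjusted p = 0.962).

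Chac1 (chromosome 2, 119351242 to 119354326, plus strand), an enzyme that breaks down glutathione, was at 8.69, 11.1, 3.90, 6.57 and 8.09 CPM in GDF15 1 to 5, against 5.41, 10.1, 3.05, 4.68 and 7.07 CPM in PairFed and 3.96, 3.82, 3.64, 7.84 and 4.39 CPM in Vehicle. All groups overlapped; Vehicle 4 lay above 2 of the GDF15 livers, while the other Vehicle livers were at 4.39 CPM or less. The log2 fold change in GDF15 against Vehicle was 0.66 ± 0.33 (95% interval -0.03 to 1.36, edgeR adjusted p = 0.331). It was 0.34 ± 0.33 in PairFed against Vehicle (adjusted p = 0.633), and in GDF15 against PairFed 0.33 ± 0.32 (adjusted p = 0.716).

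Sesn2 (chromosome 4, 132492804 to 132510456, minus strand) encodes a leucine sensor that restrains the growth kinase complex mTORC1. It ran from 13.8 to 22.4 CPM in GDF15 (median 20.5), from 13.3 to 22.5 CPM in PairFed (median 17.7) and from 14.2 to 21.5 CPM in Vehicle (median 16.5). The ranges nearly coincided, and the log2 fold changes were 0.15 ± 0.16 in GDF15 against Vehicle (95% interval -0.18 to 0.48, edgeR adjusted p = 0.689), 0.08 ± 0.16 in PairFed against Vehicle (adjusted p = 0.845) and 0.07 ± 0.16 in GDF15 against PairFed (adjusted p = 0.885).

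The enzymes of amino acid synthesis were close to the floor of detection. Psat1 (chromosome 19, 15905123 to 15925059, minus strand), which makes phosphoserine, was at 1.02, 1.84, 1.56, 0.784 and 1.47 CPM in GDF15 1 to 5, against 1.74, 1.35, 2.01, 1.77 and 1.10 CPM in PairFed and 1.78, 2.21, 2.49, 3.59 and 1.28 CPM in Vehicle. The counts behind these values were 8 to 16 in GDF15, 14 to 25 in PairFed and 12 to 49 in Vehicle, and Vehicle 4, the deepest library, was the highest. Vehicle 4 also had a B cell marker sum of 103.1 CPM, where the median of Vehicle was 8.13 CPM. The highest B cell sum was 8.83 CPM in GDF15 and 18.4 CPM in PairFed. The part of these markers in the values of Vehicle 4 was not tested. Its log2 fold change was -0.79 ± 0.30 in GDF15 against Vehicle (95% interval -1.41 to -0.16, edgeR adjusted p = 0.173), -0.54 ± 0.28 in PairFed against Vehicle (adjusted p = 0.335) and -0.25 ± 0.31 in GDF15 against PairFed (adjusted p = 0.783).

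Phgdh (chromosome 3, 98313171 to 98339969, minus strand), which starts serine synthesis from a glycolytic intermediate, had 0 to 8 counts in GDF15, 2 to 14 in PairFed and 2 to 23 in Vehicle. Asns (chromosome 6, 7675165 to 7693209, minus strand), asparagine synthetase and a classic ATF4 target, had 1 to 7 counts in GDF15, 5 to 25 in PairFed and 4 to 30 in Vehicle. Asns averaged 0.411 ± 0.227 CPM in GDF15, 0.9747 ± 0.623 in PairFed and 1.03 ± 0.740 in Vehicle, and Phgdh 0.304 ± 0.298, 0.407 ± 0.405 and 0.825 ± 0.544 CPM in the same order (SD, n = 5 each). Without a filter the log2 fold change of Asns was -1.31 ± 0.55 in GDF15 against Vehicle (edgeR adjusted p = 0.261), -0.12 ± 0.47 in PairFed against Vehicle (adjusted p = 0.934) and -1.19 ± 0.55 in GDF15 against PairFed (adjusted p = 0.407). That of Phgdh was -1.40 ± 0.66, -1.04 ± 0.60 and -0.36 ± 0.71 in these comparisons (adjusted p = 0.332, 0.433 and 0.901). The highest value of both enzymes was again in Vehicle 4. Phgdh can share reads with 13 annotated transcripts of other loci that match it at 95% identity or more, up to 99.3%, so its counts are uncertain.

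From animal to animal within groups, Atf3, Sesn2, Trib3 and Chac1 ran with a score of immediate-early genes, Ddit3 ran against it, and Psat1 and Gdf15 did not pass the threshold. The score was made from 24 immediate-early genes, none of them a member, which cells switch on within minutes of a stimulus, handling included. The score, a mean log2 CPM, was 4.86, 5.02, 3.67, 4.35 and 4.66 in GDF15 1 to 5, against 4.70, 4.19, 3.88, 4.11 and 4.46 in PairFed and 3.39, 4.01, 3.41, 3.81 and 4.17 in Vehicle. GDF15 3 lay apart from its group at the low end. With each group's mean removed, Atf3 rose and fell with the score over the 15 libraries (Pearson r = 0.853, adjusted p = 0.00096 by permutation within groups; Spearman rho = 0.818, adjusted p = 0.00166). The same held for Sesn2 (r = 0.853, permutation adjusted p = 0.00096; rho = 0.839, adjusted p = 0.00166), whose group means hardly differed, and for Trib3 (r = 0.844, permutation adjusted p = 0.00136; rho = 0.796, adjusted p = 0.00174).

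Ddit3 went against the score, with r = -0.818 (permutation adjusted p = 0.00270) and rho = -0.825 (adjusted p = 0.00166). Chac1 followed it more loosely (r = 0.613, permutation adjusted p = 0.0326; rho = 0.625, adjusted p = 0.0290), and Psat1 did not pass the threshold (r = -0.154, adjusted p = 0.622; rho = -0.229, adjusted p = 0.450). The p-values were adjusted over these 6 relations. Without the 2 libraries farthest from the middle of the score, GDF15 2 and GDF15 3, r was 0.708 for Atf3, 0.836 for Sesn2, 0.768 for Trib3, -0.624 for Ddit3 and 0.369 for Chac1. Among the 10 shallower libraries r was 0.843, 0.889, 0.914, -0.931 and 0.877 for these 5 genes. PairFed 1 is the only PairFed library among them and, centred on itself, adds nothing, so these values rest on GDF15 and Vehicle. The deeper set holds 5 libraries, too few for a value. Of 12250 genes outside the score, 0.139% had a higher r than Atf3, 0.147% than Sesn2, 0.188% than Trib3 and 3.03% than Chac1. A lower r than that of Ddit3 was found for 0.049%. Since libraries share the score's genes and their depth, these relations describe how the livers varied, and what sets the score was not tested.

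**Figure D4:**
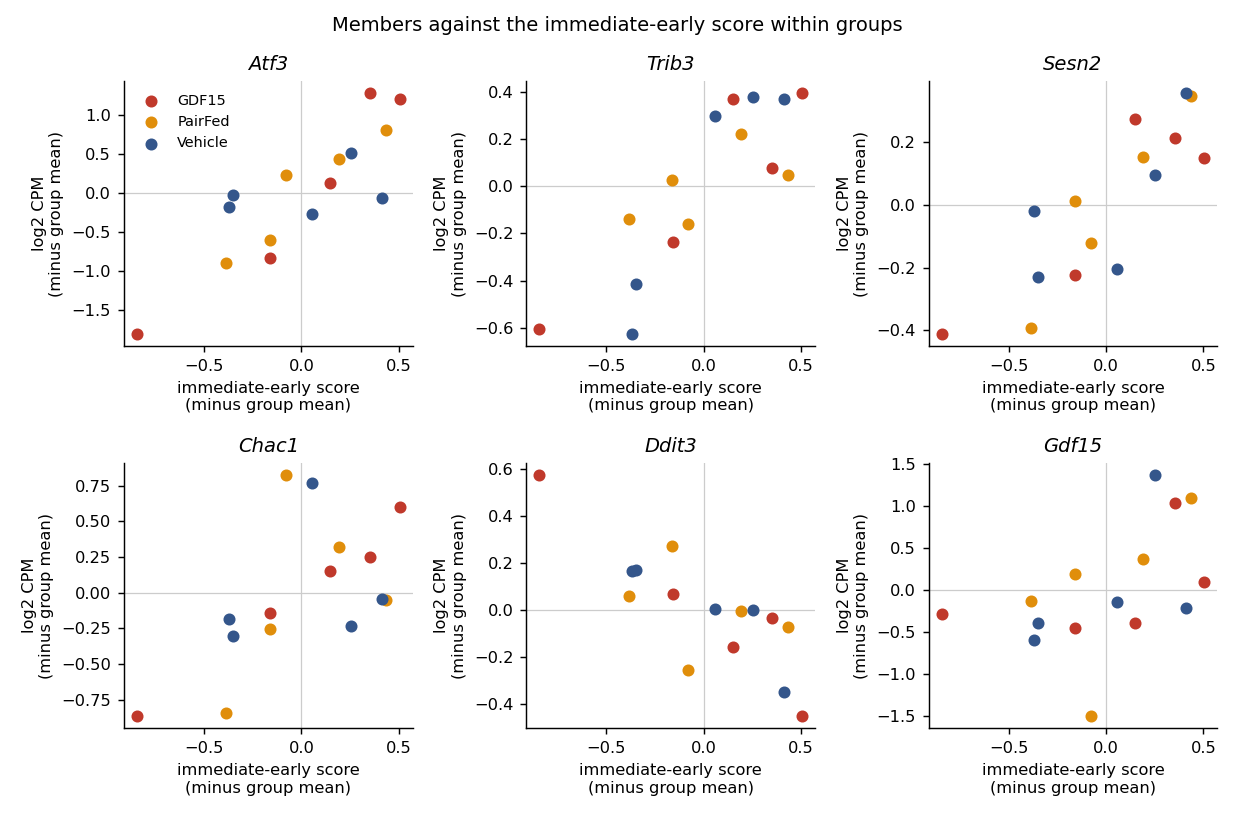
Log2 CPM of 6 members against the immediate-early score, both with the group mean removed, for the 15 libraries coloured by group. Atf3, Trib3 and Sesn2 run upward (r = 0.853, 0.844 and 0.853), Ddit3 runs downward (r = -0.818), and Gdf15 is scattered (r = 0.497).

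Among the members themselves, 15 pairs were compared the same way. Ddit3 had negative relations with Trib3 (r = -0.697), Atf3 (r = -0.707), Sesn2 (r = -0.614) and Chac1 (r = -0.677), while Atf3 and Sesn2 rose and fell together (r = 0.739). By Pearson's r none of the pairs was past the threshold after adjustment over the 15 (lowest permutation adjusted p = 0.0504), and by Spearman's rho 6 were, the 4 of Ddit3 (rho = -0.700, -0.689, -0.714 and -0.746, permutation adjusted p = 0.0431 each), Atf3 with Sesn2 (rho = 0.689, adjusted p = 0.0431) and Trib3 with Sesn2 (rho = 0.650, adjusted p = 0.0458). With the 2 libraries farthest out in the first gene of each pair left out, r was -0.513, -0.351, -0.482 and -0.460 for Ddit3 with Trib3, Atf3, Sesn2 and Chac1, 0.639 for Atf3 with Sesn2 and 0.658 for Trib3 with Sesn2.

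Gdf15 followed none of the others past the threshold. Of its 9 relations, the strongest were with the immediate-early score (r = 0.497, permutation adjusted p = 0.250; rho = 0.546, adjusted p = 0.194), Sesn2 (r = 0.460, adjusted p = 0.250; rho = 0.446, adjusted p = 0.250), Atf3 (r = 0.453, adjusted p = 0.250; rho = 0.479, adjusted p = 0.222) and Trib3 (r = 0.431, adjusted p = 0.250; rho = 0.571, adjusted p = 0.194). Without Vehicle 2 and PairFed 2, its most extreme libraries, r was 0.630, 0.557, 0.723 and 0.324. The high Gdf15 of Vehicle 2 came with 12.8 CPM of Atf3, the highest of its group, whereas PairFed 2, with the lowest Gdf15 of the 15, had the highest Chac1 of its group.

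When the score entered the fit as a covariate, the log2 fold change in GDF15 against Vehicle became 0.00 ± 0.42 for Atf3, -0.04 ± 0.53 for Gdf15, -0.11 ± 0.15 for Ddit3, -0.22 ± 0.17 for Trib3 and -0.67 ± 0.40 for Psat1 (edgeR adjusted p from 0.896 to 1). The score of 4 of the 5 GDF15 livers was above that of every Vehicle liver, so the group difference and the score share part of their variation. Atf3 is itself an immediate-early gene, though left out of the score, so this fit cannot separate its level from the score.

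The rest of the pathway was read from lists. Counts of list genes that rose or fell are edgeR's, with those of other tools named. Shares over all genes are given for GDF15 against Vehicle, PairFed against Vehicle and GDF15 against PairFed. They were 2.9%, 0.285% and 0.782% by edgeR, and 5.23%, 2.76% and 2.11% by DESeq2. At an unadjusted p under 0.05 in edgeR they were 16.7%, 16.9% and 13.3%. Of 14 stress kinases and core factors, 1 rose in GDF15 against Vehicle and none fell (list median -0.02), and DESeq2 called 2 higher. It was Cebpb, a liver transcription factor that partners ATF4 and also answers to hormones and inflammation, at 312 ± 114 CPM in GDF15, 179.5 ± 27.2 in PairFed and 130.1 ± 32.3 in Vehicle (SD, n = 5 each). This gave 1.26 ± 0.23 as the log2 fold change in GDF15 against Vehicle (edgeR adjusted p = 0.0125). With the score as a covariate it was 0.65 and no longer called (edgeR adjusted p = 0.353). In GDF15 against Vehicle that fit called 9 of all 12274 genes tested, where the main fit called 356. Of the genes called in this comparison in the other lists of stress and Gdf15 genes, 7 also lost their call in that fit (adjusted p from 0.349 to 0.869). Their log2 fold changes in it were 0.16 for Gpt2, 0.22 for Cth, 0.22 for Vegfa, -0.80 for Mthfd2, -0.29 for Wars, 0.45 for Herpud1 and 0.22 for Furin. Atf4, which encodes the central factor, was at -0.16 ± 0.18 (adjusted p = 0.717), Eif2ak4, which encodes the amino acid sensing kinase GCN2, at 0.18 ± 0.09 (adjusted p = 0.327), and Eif2ak3, which encodes PERK, at -0.20 ± 0.17 (adjusted p = 0.607). Ppp1r15a, which reverses eIF2alpha phosphorylation, was at 0.69 ± 0.24 (adjusted p = 0.150), Nupr1, a stress coactivator, at -0.35 ± 0.22 (adjusted p = 0.464) and Atf5, a relative of ATF4, at -0.18 ± 0.09 (adjusted p = 0.320). In PairFed against Vehicle and in GDF15 against PairFed, 0 of the 14 were called by edgeR (2 and 3 at an unadjusted p under 0.05). For GDF15 against Vehicle 2 of the 14 had an unadjusted p under 0.05. DESeq2 called 1 lower in PairFed against Vehicle and 1 higher in GDF15 against PairFed.

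Of 20 tested genes among 26 other ATF4 targets, 3 rose in GDF15 against Vehicle by edgeR and none fell, with a median of 0.08. The values pointed both ways in that comparison, with 11 above 0 and 9 below. There 8 of the 20 had an unadjusted p under 0.05, DESeq2 called 5 higher and 1 lower, and limma-voom called 2 higher. For PairFed against Vehicle edgeR called 0 (also 8 at an unadjusted p under 0.05) and DESeq2 1 higher. The 3 called by edgeR were Gpt2, an alanine transaminase, at 0.29 ± 0.07 (edgeR adjusted p = 0.0398), Cth, which makes cysteine from cystathionine, at 0.44 ± 0.10 (adjusted p = 0.0272), and Vegfa, a growth factor for vessels, at 0.42 ± 0.11 (adjusted p = 0.0430). Their calls were lost without any of 7, 6 and 9 single libraries. The call of Gpt2 was also lost with upper-quartile factors (adjusted p = 0.0562) and when depth entered the fit as a term (0.0568), and that of Vegfa with limma-voom (0.0526) and the depth term (0.0626). In PairFed against Vehicle, Gpt2 was at 0.34 (edgeR adjusted p = 0.0578), Cth at 0.24 (0.248) and Vegfa at 0.28 (0.189). In GDF15 against PairFed they were at -0.05, 0.20 and 0.14 (edgeR adjusted p = 0.838, 0.408 and 0.633). Fgf21, a fasting hormone of the liver that ATF4 also drives, was at 8.51 ± 2.55 CPM in GDF15, 8.62 ± 3.49 in PairFed and 14.0 ± 3.85 in Vehicle (SD, n = 5 each). Its log2 fold change was -0.70 ± 0.31 in GDF15 against Vehicle (adjusted p = 0.271) and -0.69 ± 0.30 in PairFed against Vehicle (adjusted p = 0.268). Ddit4, a brake on mTORC1 that also answers to glucocorticoids, was at 110.4 ± 85.1 CPM in GDF15, 46.0 ± 28.4 in PairFed and 24.2 ± 11.6 in Vehicle, a difference of 2.20 ± 0.67 from Vehicle in GDF15 (adjusted p = 0.107). The cystine transporter gene Slc7a11 had 40 counts in all libraries together and was not tested.

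In serine and folate synthesis, 1 of 6 tested genes fell in GDF15 against Vehicle by edgeR and none rose (median -0.04). It was Mthfd2, a mitochondrial folate enzyme and ATF4 target, at 1.98 ± 0.496 CPM in GDF15, 1.89 ± 0.402 in PairFed and 3.99 ± 0.996 in Vehicle (SD, n = 5 each). Its log2 fold change was -1.01 ± 0.23 in GDF15 against Vehicle (edgeR adjusted p = 0.0254) and -1.09 ± 0.23 in PairFed against Vehicle (adjusted p = 0.0503), at a low level of expression, and the first call was lost without any of 6 single libraries. In PairFed against Vehicle DESeq2 and limma-voom each called 1 gene of this list lower, where edgeR called 0 and 2 had an unadjusted p under 0.05. An unadjusted p under 0.05 was reached by 4 of the 6 in GDF15 against Vehicle, where DESeq2 and limma-voom each called 1 lower. Psph, the last enzyme of serine synthesis, was at -0.21 ± 0.16 (adjusted p = 0.557) and Shmt2, the mitochondrial serine hydroxymethyltransferase, at 0.14 ± 0.06 (adjusted p = 0.273) in GDF15 against Vehicle. Of 20 cytosolic tRNA synthetases, many of which ATF4 drives, 1 fell in GDF15 against Vehicle by edgeR and none rose. It was Wars (-0.40 ± 0.10, edgeR adjusted p = 0.0350), and the call was lost without any of 5 libraries. Wars was at -0.37 in PairFed against Vehicle and -0.02 in GDF15 against PairFed. The list median was -0.04 in GDF15 against Vehicle, where 3 of the 20 had an unadjusted p under 0.05. In PairFed against Vehicle it was -0.15, with 16 of 20 values below 0, 0 called by edgeR, 8 at an unadjusted p under 0.05 and 1 called lower by DESeq2.

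**Figure D5:**
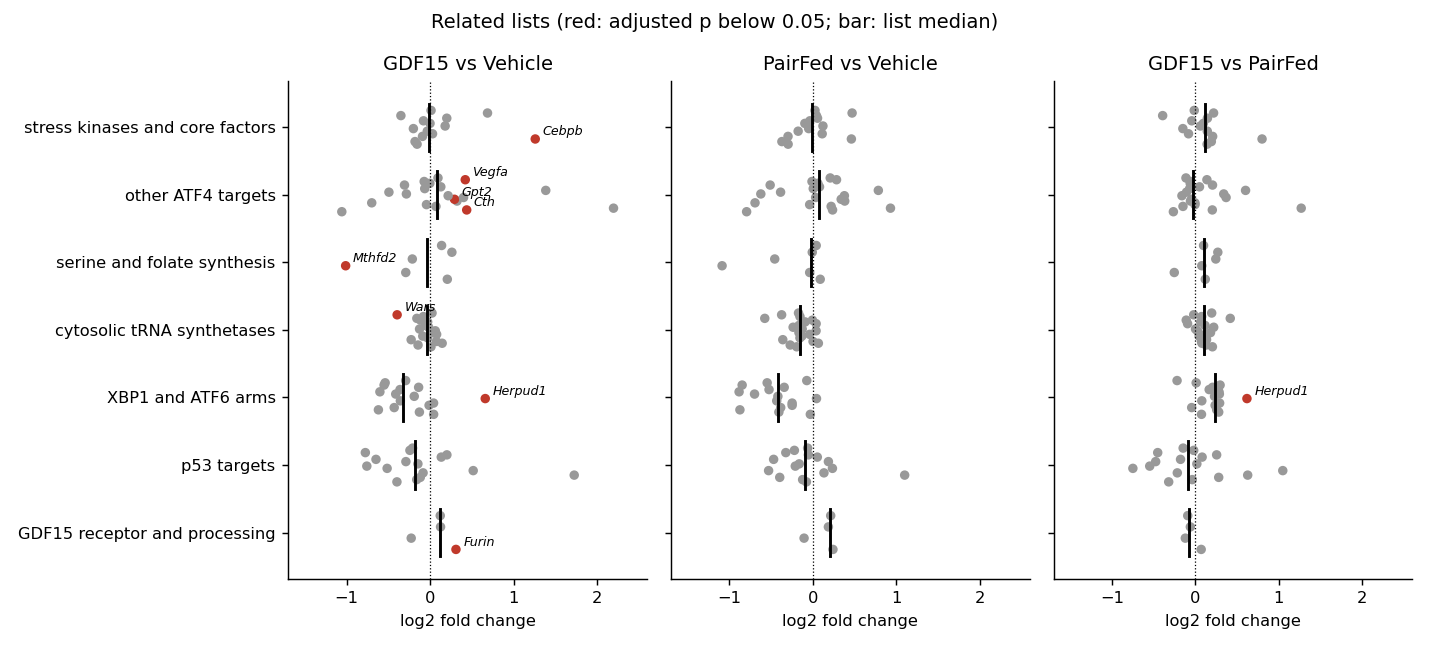
Log2 fold change of every tested gene in 7 related lists in the 3 comparisons; red points passed an edgeR adjusted p of 0.05 and are named, and the black bar is the list median. The medians in GDF15 against Vehicle lie between -0.33 and 0.12, Cebpb (1.26) and Mthfd2 (-1.01) stand farthest out among genes called by edgeR, and edgeR called none of them in PairFed against Vehicle.

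Beside the ATF4 branch, the XBP1 and ATF6 arms answer to misfolded protein in the endoplasmic reticulum. Of their 16 genes edgeR called 1 higher in GDF15 against Vehicle, Herpud1, and none lower. In that comparison 13 of the 16 values were below 0, 10 had an unadjusted p under 0.05, and DESeq2 called 1 higher and 3 lower. Herpud1, which helps to degrade misfolded proteins, was at 615 ± 52.4 CPM in GDF15, 401 ± 39.4 in PairFed and 389 ± 84.7 in Vehicle (SD, n = 5 each). It was higher by 0.66 ± 0.12 in GDF15 against Vehicle (edgeR adjusted p = 0.00645) and by 0.62 ± 0.12 in GDF15 against PairFed (adjusted p = 0.0253). The second call was lost with a term for the deeper libraries (adjusted p = 0.204) and without any of 5 single libraries. The chaperone gene Hspa5 was at -0.41 ± 0.16 in GDF15 against Vehicle (adjusted p = 0.203) and -0.70 ± 0.16 in PairFed against Vehicle (adjusted p = 0.0735). The list medians were -0.33, -0.41 and 0.23 in GDF15 against Vehicle, PairFed against Vehicle and GDF15 against PairFed. In PairFed against Vehicle 15 of the 16 values were below 0; edgeR called 0, 12 had an unadjusted p under 0.05, DESeq2 called 9 lower and limma-voom called 1 lower.

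Other known routes to Gdf15 were also read. Of 16 genes of the p53 response, which drives Gdf15 after DNA damage, 0 were called by edgeR in each comparison. At an unadjusted p under 0.05 there were 5, 3 and 5 in GDF15 against Vehicle, PairFed against Vehicle and GDF15 against PairFed. DESeq2 called 1 higher in the first of these and 0 in the others. Cdkn1a, a cell cycle brake, was at 0.52 ± 0.34 in GDF15 against Vehicle (adjusted p = 0.496) and 1.05 ± 0.35 in GDF15 against PairFed (adjusted p = 0.210). Some lists share genes. Cdkn1a is also in the list of glucocorticoid-induced genes given below, and Btg2 of the p53 list is also in the immediate-early score. Dusp1 and Gadd45b are in both that score and the glucocorticoid-induced list. The receptor gene Gfral was not in the count table, and the co-receptor gene Ret had 8 counts in all. Furin, a protease that can cut the GDF15 precursor, was at 363 ± 15.27 CPM in GDF15, 347 ± 18.1 in PairFed and 293 ± 21.0 in Vehicle (SD, n = 5 each), and rose by 0.31 ± 0.06 in GDF15 against Vehicle (edgeR adjusted p = 0.0106). Its value in PairFed against Vehicle was 0.24 ± 0.06 (adjusted p = 0.0781), where DESeq2 called 2 of the 4 receptor and processing genes tested higher. Of 24 immediate-early genes 0 were called by edgeR in each comparison, with medians of 0.90, 0.38 and 0.24, and 15, 9 and 6 genes at an unadjusted p under 0.05. DESeq2 called 6 higher and 1 lower in GDF15 against Vehicle. It called 1 higher and 1 lower in PairFed against Vehicle, and 2 higher in GDF15 against PairFed. Of 18 glucocorticoid-induced genes 11 rose in GDF15 against Vehicle, 0 in PairFed against Vehicle and 5 in GDF15 against PairFed by edgeR. In PairFed against Vehicle 8 had an unadjusted p under 0.05, and DESeq2 called 2 higher and 1 lower. The unadjusted count was 15 in GDF15 against Vehicle and 11 in GDF15 against PairFed. The 6 with the smallest p in any comparison, given for GDF15 against Vehicle, were Fkbp5, a co-chaperone of the glucocorticoid receptor (1.69 ± 0.16), Tsc22d3, which encodes the mediator GILZ (0.74 ± 0.15), Sds, a serine-degrading enzyme (1.57 ± 0.17), the transcription factor gene Zbtb16 (1.83 ± 0.25), Lpin1, a phosphatase of lipid synthesis (1.90 ± 0.27), and the clock gene Per1 (1.32 ± 0.24), with edgeR adjusted p of at most 0.0138.

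Genes whose level followed Gdf15 most closely from animal to animal included Depp1 (r = 0.828), Acadm (r = 0.824), Cyp4a14 (r = 0.799) and Gpr65 (r = 0.794), all within the 5 highest among 11242 genes whose log2 CPM averaged 1 or more, over the 15 libraries with group means removed. The median r was 0.01, and no test is given because they were picked for their r. Acadm encodes a dehydrogenase of fatty acid oxidation, Cyp4a14 a hydroxylase of fatty acids, Depp1 a regulator of autophagy induced by fasting, and Gpr65 a proton-sensing receptor. None of these 4 was called by edgeR between groups; Cyp4a14 came closest, at 583 ± 129.98 CPM in GDF15, 465 ± 125 in PairFed and 369 ± 50.6 in Vehicle (SD, n = 5 each), a difference of 0.66 ± 0.18 from Vehicle in GDF15 (adjusted p = 0.0717). Acadm averaged 411 ± 34.8, 424 ± 22.9 and 407 ± 31.9 CPM in GDF15, PairFed and Vehicle.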

How the data were processed

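RNA of 15 mouse livers was measured by sequencing, 5 libraries per group. Per the labels' protocols, TRIzol lysates were cleaned on RNeasy columns and a directional kit made the libraries. The authors deposited one table of estimated counts per gene symbol, whole numbers not scaled to depth, per the values; Salmon and DESeq2 are named, without versions or roles, with the build mm10, per the submitters' processing notes. No source used here gives the transcript set or the strand setting. Columns show the group but not the animal, so libraries are numbered by table order, as names only. Within-group library pairs differed by more than counting noise (mean chi-square per gene at least 6.84), so all were kept.

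Genes were filtered with filterByExpr (count 10, total count 15), leaving 12274 genes, scaled by TMM and tested in edgeR 4.0.16 (R 4.3.3) with robust quasi-likelihood fits of all 15 libraries, adjusted by Benjamini-Hochberg over all genes tested. Standard errors come from the F statistic. Log2 CPM used a prior count of 2. Relations used 100000 permutations within groups. The members, gene lists and the naming rule (members, called list genes, listed pathway genes and the 5 genes nearest to Gdf15) were chosen with earlier results of these data known. One of these 5 is not reported here. The relations of other members with the score, and between members, and the alternatives for called list genes, were added after seeing the data. Alternatives were DESeq2 size factors, upper-quartile factors, no filter, a filter of 10 CPM in 5 libraries, DESeq2 1.42.0, limma-voom (limma 3.58.1), a fit of the 2 groups alone, a term for deeper libraries, the score as a covariate, and leaving out each library. The test was checked on simulated data. Positions and promoters are from RefSeq (GRCm38.p6), overlapping genes and copies from GENCODE M21.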

Additional observations from a re-analysis of the deposited data

Results flagged for a closer look

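In 27 sets of 5 libraries (9 members in 3 groups), 5 held a library far from the other 4, by a gap over 0.71 of the group's range. For values with a normal spread, chance flags about 1 set in 20. The rule was run on CPM, which need not have such a spread, and not on log2 CPM. Each flagged library was the highest of its set. Gdf15 was at 259 CPM in GDF15 1, where the next was at 134 CPM, and at 187 CPM in Vehicle 2, where the next was at 65.3 CPM. Atf3 was at 12.8 CPM in Vehicle 2, where the next was at 8.73 CPM. Chac1 was at 7.84 CPM in Vehicle 4, where the next was at 4.39 CPM. Phgdh was at 1.12 CPM in PairFed 3, where the next was at 0.314 CPM. By this rule on CPM, Vehicle 2 was set apart for both Gdf15 and Atf3.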

How the results depend on the processing

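No paired analysis was possible because no label ties libraries of different groups to each other. The number of members called was 0 in each comparison except in GDF15 against Vehicle, where it was 1 with the DESeq2 Wald test and 0 to 2 when each library was left out (2 without GDF15 3). The log2 fold change of Gdf15 ranged from 0.35 to 1.24 in GDF15 against Vehicle, from -0.37 to 0.50 in PairFed against Vehicle and from 0.38 to 1.08 in GDF15 against PairFed when each library was left out; the second turned positive without Vehicle 2, PairFed 2 or PairFed 3. When the immediate-early score was a covariate, values in GDF15 against Vehicle turned to -0.0402 for Gdf15, -0.215 for Trib3, -0.293 for Sesn2 and -0.0172 for Chac1, those in PairFed against Vehicle to -0.0294 for Atf3, -0.223 for Sesn2 and -0.0906 for Chac1, and Sesn2 in GDF15 against PairFed to -0.0702. With the term for deeper libraries, Gdf15 in PairFed against Vehicle turned to 0.38, and in GDF15 against PairFed Trib3 turned to 0.0656, Sesn2 to -0.202 and Psat1 to 0.121. Leaving out single libraries gave Sesn2 -0.0158 to 0.174 in PairFed against Vehicle and -0.0138 to 0.170 in GDF15 against PairFed, Ddit3 -0.135 to 0.148 and Trib3 -0.138 to 0.0947 in GDF15 against PairFed. Without centring on group means, the r of Gdf15 was -0.139 with Ddit3, 0.0906 with Chac1 and -0.158 with Psat1; leaving out single libraries it ran from -0.223 to 0.131, -0.236 to 0.227 and -0.0154 to 0.186, and that of Psat1 with the score from -0.340 to 0.0132. Without PairFed 2, the r of Gdf15 with Atf3 was 0.641 (permutation adjusted p = 0.0305). In the fit of the 2 groups alone Cebpb (adjusted p = 0.0515), Mthfd2 (0.0504), Gpt2 (0.0921), Vegfa (0.0616) and Wars (0.0631) were not called. The number of genes called in GDF15 against Vehicle was 356, 642 with DESeq2, 194 with the 2 groups alone, 9 with the score as a covariate and 134 to 476 without single libraries; in PairFed against Vehicle it was 35, 339 with DESeq2, 0 with the term for deeper libraries or the score and 0 to 135 without single libraries; in GDF15 against PairFed it was 96, 259 with DESeq2, 9 with the term for deeper libraries and 21 to 171 without single libraries. The relation of Chac1 with the score lost its call without 6 of the single libraries (r from 0.424 to 0.738). The cause of these changes was not tested. Depth limits Asns, Phgdh, Psat1 and Mthfd2, which had few counts per library.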
